A study of Mus musculus with 13 samples.

Results

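The genes described here are 10 genes of fatty acid synthesis and milk lipid handling, Acly, Acaca, Fasn, Olah, Elovl6, Scd1, Scd2, Srebf1, Thrsp and Cel. They are the rows of the count table that carry these symbols, 10 of 24421 symbols in all, and all 10 passed the filter on low counts. RNA was sequenced from 2 mammary glands free of cancer and 11 individual mammary tumors from female FVB/N-TgN mice with the transgene (MMTV-HER2/neu), line 202Mul/J. The transgene encodes rat HER2/Neu, and its promoter (MMTV) is active chiefly in mammary epithelial cells. Tumors arise spontaneously, and the genotype label of every library, glands included, reads wild type. Primary untreated tumors (n = 3) came from mice on plain water. Primary STV tumors (n = 3) came from mice given stavudine (STV), a nucleoside inhibitor of reverse transcriptase, at 1 mg/mL in drinking water. The study describes these tumors as having developed in mice on stavudine. Recurrent DMAG tumors (n = 3) grew back once 17-DMAG, which blocks the chaperone HSP90 and was injected at 20 mg/kg 3 times per week, had brought a complete response. Recurrent DMAG+STV tumors (n = 2) did so with stavudine in the water. In the study, mice began stavudine at 2 months of age at the earliest, or once tumors had appeared. The glands (n = 2) came from untreated mice, and their reproductive state is not in the labels. The members were chosen by values measured in these libraries, since Olah and Cel had been named for their large difference between tumors and glands, so all gland levels of the 10 genes are given as a description with no test.

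Fatty acids are built in the cytosol from acetyl-CoA. ATP citrate lyase releases acetyl-CoA from citrate, acetyl-CoA carboxylase turns it into malonyl-CoA, and fatty acid synthase adds these units to a growing chain, which in most tissues leaves the enzyme as palmitate. In the lactating mammary gland a separate thioesterase, encoded by Olah, releases shorter chains, and these medium-chain fatty acids are a mark of milk fat. The chains are then elongated, desaturated and built into triglycerides, which leave the cell as milk fat globules, and the whole program rises steeply at lactation. White adipocytes, which fill most of a resting mammary gland, use many of the same enzymes, so in bulk tissue fewer cells of a type and less RNA per cell cannot be told apart.

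The members lie at separate places in the mouse genome (GRCm38). Acly (ENSMUSG00000020917, chr11:100476353-100528000), Fasn (ENSMUSG00000025153, chr11:120805846-120824547) and Srebf1 (ENSMUSG00000020538, chr11:60199089-60222581) are on the minus strand of chromosome 11, and Acaca (ENSMUSG00000020532, chr11:84129672-84401651) is on its plus strand. Olah (ENSMUSG00000026645, chr2:3341982-3397210) and Cel (ENSMUSG00000026818, chr2:28555795-28563403) are on the minus strand of chromosome 2, and Thrsp (ENSMUSG00000035686, chr7:97412938-97417730) is on that of chromosome 7. Elovl6 (ENSMUSG00000041220, chr3:129532355-129638495) is on the plus strand of chromosome 3. Scd1 (ENSMUSG00000037071, chr19:44394455-44407879, minus strand) and Scd2 (ENSMUSG00000025203, chr19:44293674-44306864, plus strand) are neighbouring close paralogs, so reads may have been lost or shared between them. Exons of Srebf1 overlap those of Rai1 on the other strand and Scd2 overlaps the microRNA gene Mir5114. The library kit marks strand, but the strand setting of the counting is not given in the sources used here.

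RefSeq promoters (GRCm38.p6) were held for 8 of the 10 members, 10 promoters in all with 3 of Srebf1. The sequences before the start sites of Fasn, the central enzyme, and of Olah and Cel, the members whose levels in the glands were furthest from the tumors, are shown 5′ to 3′ on the minus strand, with CCAAT boxes (CCAAT on either strand) in capitals. They lie at chr11:120824548-120824797 (Fasn), chr2:3366601-3366819 (Olah, without the 31 bases next to the start, which other transcripts use as exon) and chr2:28563404-28563653 (Cel).
Fasn: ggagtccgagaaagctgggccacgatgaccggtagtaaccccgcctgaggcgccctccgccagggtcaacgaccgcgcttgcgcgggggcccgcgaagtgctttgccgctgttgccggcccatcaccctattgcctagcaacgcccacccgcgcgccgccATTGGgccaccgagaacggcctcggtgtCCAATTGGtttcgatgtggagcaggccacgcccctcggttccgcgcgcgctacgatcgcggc
Olah: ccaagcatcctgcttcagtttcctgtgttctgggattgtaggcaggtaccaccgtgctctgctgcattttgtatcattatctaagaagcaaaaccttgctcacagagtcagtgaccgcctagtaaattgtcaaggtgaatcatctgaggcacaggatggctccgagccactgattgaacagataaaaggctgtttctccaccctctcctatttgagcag
Cel: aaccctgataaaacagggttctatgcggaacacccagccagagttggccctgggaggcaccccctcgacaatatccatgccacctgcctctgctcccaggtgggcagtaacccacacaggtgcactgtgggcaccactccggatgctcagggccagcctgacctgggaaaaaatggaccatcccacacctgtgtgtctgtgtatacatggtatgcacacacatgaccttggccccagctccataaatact

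The Fasn stretch held 3 CCAAT boxes, whose first bases lay 90, 62 and 59 bases before the start, the last pair overlapping by 2 bases. GC content was 69.2% in the Fasn stretch, 56.4% in that of Cel and 47.5% in that of Olah. Over the 250 bases before the start, 4 of the 10 member promoters (Fasn, Thrsp and 2 of Srebf1) held a CCAAT box, against 33.8% of all 32851 promoters in the table. None of the 10 held TCACNCCAC, the letters of a sterol regulatory element, which 1.05% of all promoters held. None held the E-box CACGTG (6.02% of all promoters), the STAT site TTCNNNGAA (7.02%) or the core promoter element TATAAA (12.4%). Each was searched on both strands. These are matches of letters in 1 window and say nothing of which factor binds. Some windows, such as those of Olah, Thrsp and Acaca, lay partly or wholly inside the annotated gene, as did the CCAAT boxes of Thrsp. The Olah stretch shown precedes an internal start, since the annotated gene begins at chr2:3397210 on the minus strand.

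The libraries differed in the tissue they held. Total counts ran from 39921388 to 56887708. Values are given as CPM, counts relative to an effective library size that is the total times a TMM scaling factor. This factor was 0.493 in gland 2 and 0.999 to 1.12 in the others. The 8 milk protein markers took 3.16% of the counts of gland 1, 37.7% of those of gland 2 and 0.490% to 2.47% of those of the tumors. The summed CPM of 8 adipocyte markers was 606 and 438 in the glands and ran from 2.59 to 117 in the tumors, and that of 8 skeletal muscle markers ran from 0.782 to 1561 in the tumors and was 6.08 and 1704 in the glands. Cel is also a gene of the pancreas, and the 8 pancreatic acinar markers summed to 0.102 to 2.66 CPM in all libraries. Cela1 was the marker above 3 counts in all 11 tumors, at 0.0815 to 2.52 CPM, and the part of such cells in the Cel level of tumors was not tested. The 8 luminal epithelium markers summed to 1524 to 3123 CPM in every library, so this epithelium was present in both tumors and glands. Single markers differed, so the sum does not give equal shares. Krt19 had 81.3 and 234 CPM in the glands and 0.253 to 41.0 CPM in the tumors. Elf5 had 313 and 1081 CPM in the glands and 144 to 305 CPM in the tumors. Krt18 had 319 and 204 CPM in the glands and 221 to 749 CPM in the tumors. The 10 members together took 1.55% of the counts of gland 1, 3.14% of those of gland 2 and 0.425% to 0.623% of those of the tumors.

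Acly, the ATP citrate lyase, stood at 230, 265 and 237 CPM in the primary untreated tumors and at 240, 195 and 162 CPM in the primary STV tumors. It was 284, 150 and 188 CPM in the recurrent DMAG tumors and 317 and 227 CPM in the recurrent DMAG+STV tumors. All 4 groups overlapped, and the highest tumor was 2.11 times the lowest. The glands held 575 CPM (gland 1) and 4299 CPM (gland 2), both above every tumor.

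Acaca, acetyl-CoA carboxylase, the committed step of the pathway, had 278, 167 and 155 CPM in primary untreated tumors and 243, 195 and 179 CPM in primary STV tumors. In recurrent DMAG tumors it had 183, 154 and 213 CPM, and in recurrent DMAG+STV tumors 207 and 242 CPM. Among the 10 genes it varied least over the 11 tumors, with a highest to lowest ratio of 1.80 and an SD of 0.28 on the log2 CPM scale. Its level was 997 CPM in gland 1 and 6905 CPM in gland 2.

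Fasn, the synthase itself, was at 1165, 456 and 368 CPM in primary untreated tumors and at 1094, 725 and 542 CPM in primary STV tumors. Recurrent DMAG tumors had 287, 601 and 764 CPM and recurrent DMAG+STV tumors 536 and 837 CPM. The spread inside the primary untreated group (663 ± 437 CPM, SD, n = 3) was wide enough to cover the mean of each other tumor group, and the lowest tumor was recurrent DMAG 1. The glands reached 3913 and 20603 CPM.

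Olah, the medium-chain thioesterase, was close to silent in most tumors. Its CPM was 0.737, 0.632 and 0.421 in primary untreated tumors and 1.43, 1.17 and 0.253 in primary STV tumors. It was 12.7, 0.223 and 0.483 in recurrent DMAG tumors and 3.21 and 0.204 in recurrent DMAG+STV tumors. The level of recurrent DMAG 1 rests on 550 counts and was 62.5 times that of the lowest tumor, recurrent DMAG+STV 2, with 10 counts, and every tumor was above the floor of 3 counts. Gland 1 had 21.4 CPM, not far above recurrent DMAG 1, and gland 2 had 2056 CPM.

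**Figure D1:**
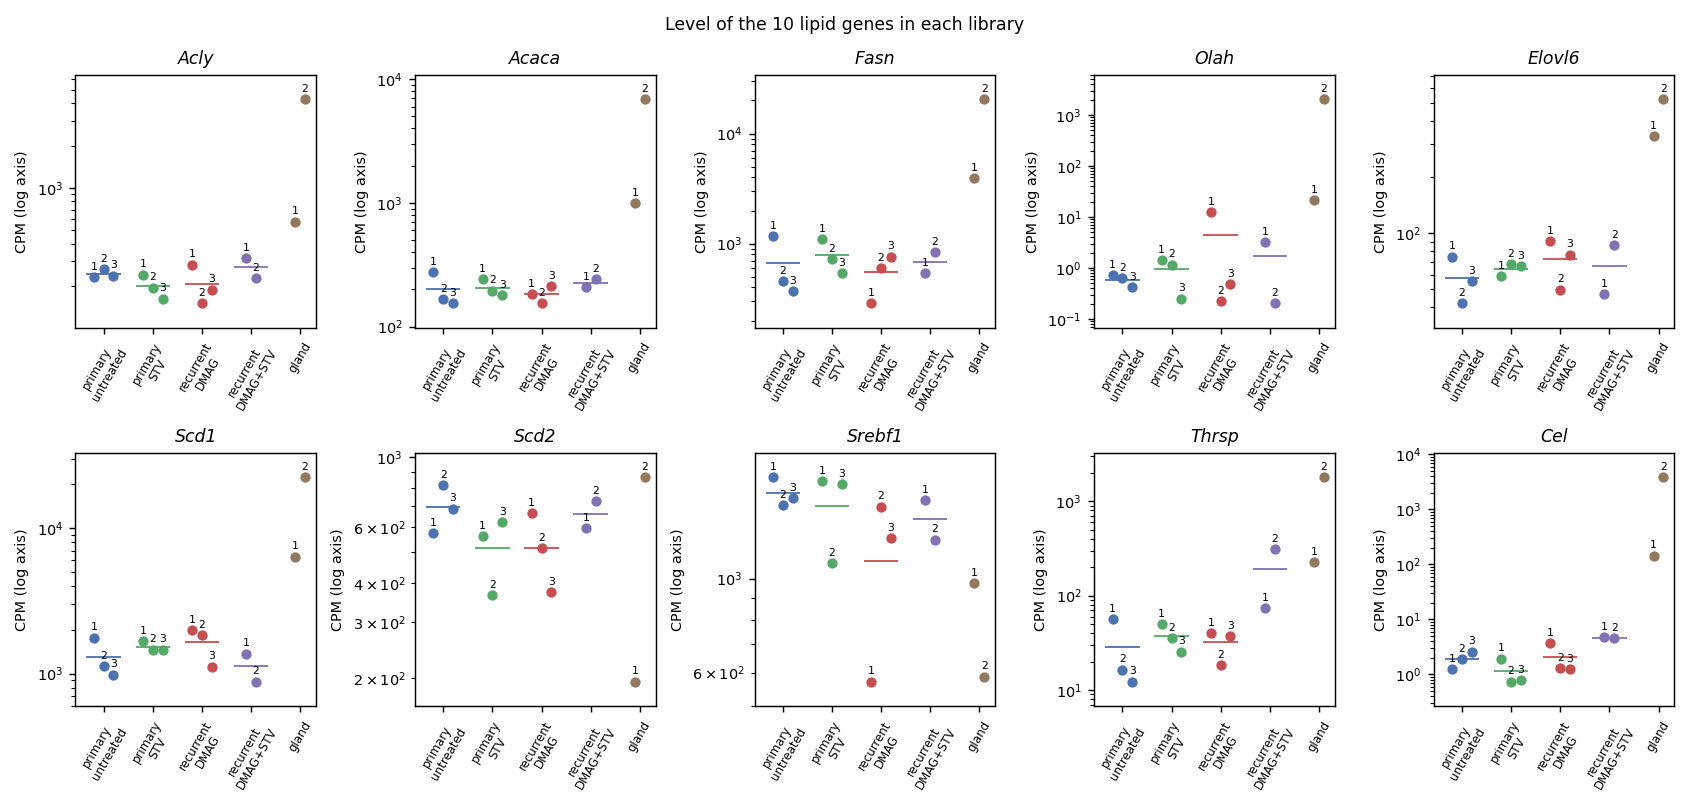
CPM of each of the 10 genes in every library on log axes, 1 panel per gene; points are libraries with their replicate number, and horizontal lines are the means of the tumor groups. For Acly, Acaca, Fasn, Olah, Elovl6, Scd1 and Cel both glands lie above all 11 tumors, whereas for Srebf1 the glands lie below 10 of them.

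Elovl6, which elongates palmitate to stearate, had 75.0, 42.0 and 55.5 CPM in primary untreated tumors and 58.8, 68.3 and 66.7 CPM in primary STV tumors. It had 90.4, 49.8 and 76.8 CPM in recurrent DMAG tumors and 47.1 and 86.6 CPM in recurrent DMAG+STV tumors, with 332 and 526 CPM in the glands. The tumor groups overlapped throughout.

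Scd1 and Scd2, the delta-9 desaturases that make monounsaturated fatty acids, differed in their glands. Scd1 was at 1768, 1118 and 982 CPM in primary untreated tumors and 1674, 1460 and 1462 CPM in primary STV tumors. It was at 1991, 1847 and 1116 CPM in recurrent DMAG tumors and at 1370 and 879 CPM in recurrent DMAG+STV tumors, and the glands had 6368 and 22348 CPM. Both recurrent DMAG+STV tumors were below the 3 primary STV tumors, and 35.3% of all genes had these groups free of overlap. Scd2 had 576, 816 and 687 CPM in primary untreated tumors and 563, 366 and 622 CPM in primary STV tumors. It had 663, 515 and 374 CPM in recurrent DMAG tumors and 597 and 728 CPM in recurrent DMAG+STV tumors. In gland 1 it had 194 CPM, below all 11 tumors, and in gland 2 863 CPM, above all 11. The second of these orders depended on the scaling, since on library totals alone only 2 of the 11 tumors were below gland 2.

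Srebf1, the transcription factor that switches on the genes of lipogenesis, was the member that was lower in both glands than in most tumors. It had 1732, 1488 and 1545 CPM in primary untreated tumors and 1696, 1085 and 1672 CPM in primary STV tumors. Recurrent DMAG tumors had 571, 1478 and 1243 CPM and recurrent DMAG+STV tumors 1533 and 1235 CPM. All 3 recurrent DMAG tumors were below the 3 primary untreated tumors, but recurrent DMAG 2 (1478) only just below primary untreated 2 (1488). On library totals alone their order turned, with 1567 and 1486 CPM, and the groups overlapped. With TMM factors 15.1% of all genes had these groups free of overlap. The glands had 975 and 587 CPM, below 10 of the 11 tumors, recurrent DMAG 1 being the exception. On library totals alone recurrent DMAG 1 was also above gland 2.

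Thrsp, a small nuclear protein of lipogenic tissue that is induced by thyroid hormone and by feeding, spread widely between tumors. Its CPM was 56.8, 16.4 and 12.2 in primary untreated tumors and 50.0, 35.1 and 25.4 in primary STV tumors. It was 40.1, 18.5 and 37.4 in recurrent DMAG tumors and 74.3 and 308 in recurrent DMAG+STV tumors. Gland 1, at 225 CPM, was above 10 of the 11 tumors but below recurrent DMAG+STV 2, and gland 2 had 1794 CPM.

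Cel, the bile salt-stimulated lipase that is secreted into milk and by the pancreas, was low in all tumors. It had 1.25, 1.92 and 2.61 CPM in primary untreated tumors and 1.93, 0.740 and 0.801 CPM in primary STV tumors. It had 3.77, 1.30 and 1.24 CPM in recurrent DMAG tumors and 4.75 and 4.55 CPM in recurrent DMAG+STV tumors. The glands had 145 and 3838 CPM.

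Per kilobase of exon, which allows genes to be set side by side, the median CPM over the tumors was highest for Srebf1 (346) and Scd1 (302). Scd2 (109), Fasn (59.8), Acly (49.8), Thrsp (29.3), Acaca (20.5) and Elovl6 (10.9) followed, and Cel (0.929) and Olah (0.357) came last. The ranges of the 11 tumors overlapped between neighbours in this order except in 3 places. The lowest Scd1 tumor (182) was above the highest Scd2 tumor (150), the lowest Acaca tumor (16.2) above the highest of Elovl6 (14.7), and the lowest Elovl6 tumor (6.85) above the highest of Cel (2.30). In gland 2 the order was different, with Scd1 (4625), Fasn (2050) and Cel (1860) in front, followed by Thrsp (1405) and Olah (1162), and with Srebf1 (136) near the end. In gland 1 Scd1 (1318), Fasn (389) and Srebf1 (227) led and Olah (12.1) was last.

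The glands stood apart from each other as well as from the tumors, so each was set on its own against the median of the 11 tumors. Gland 1 exceeded this median 33.9-fold for Olah and 75.6-fold for Cel, and 2.50- to 6.51-fold for Acly, Scd1, Elovl6, Acaca, Thrsp and Fasn. Gland 2 exceeded it 3254-fold for Olah and 2003-fold for Cel, and 7.88- to 48.0-fold for the same 6 genes. Scd2 was 0.326 times the tumor median in gland 1 and 1.45 times it in gland 2, and Srebf1 was 0.655 and 0.394 times. Because milk proteins took so large a share of gland 2, its values depended on scaling. On library totals alone the ratio of gland 2 to the tumor median was 1605 for Olah, 988 for Cel and 15.9 for Fasn, and that of Scd2 turned to 0.689. Between the glands, gland 2 had 96.1 times the Olah level and 26.5 times the Cel level of gland 1 (42.1 and 11.6 on library totals). For Elovl6 the ratio was 1.58 with TMM factors and 0.693 on library totals, so its order between the glands was not fixed by these data. In the fit of all 13 libraries the log2 difference of primary untreated tumors minus glands had a median of -3.84 over the 10 members. This median was -2.33 without gland 2 and -4.51 without gland 1. These medians describe members chosen with this contrast known, and they test nothing.

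**Figure D2:**
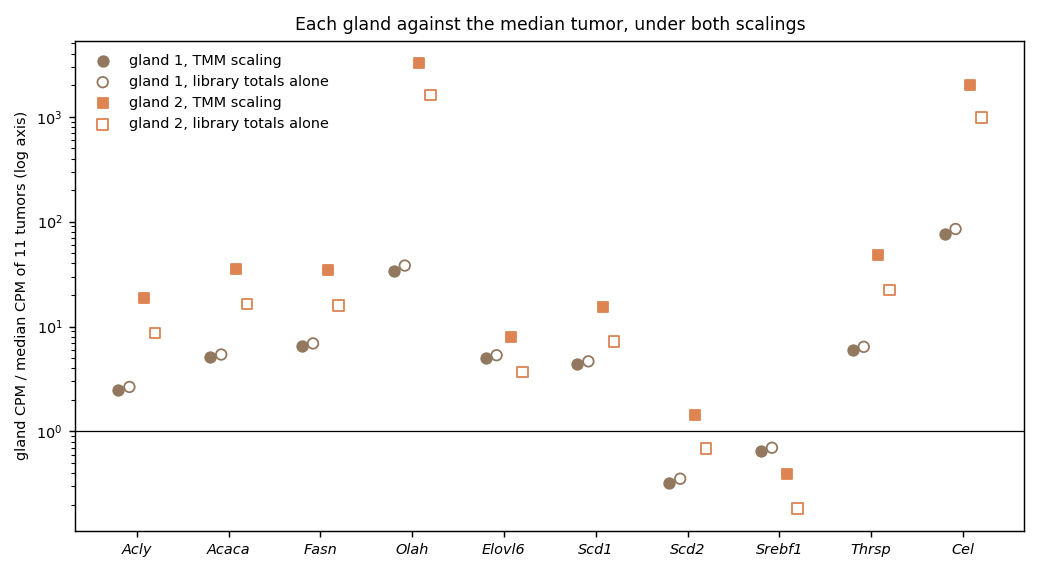
Ratio of each gland to the median CPM of the 11 tumors for the 10 genes on a log axis; filled symbols use TMM scaling and open symbols library totals alone. Olah and Cel stand highest in both glands, Srebf1 is below 1 in both, and Scd2 is below 1 in gland 1 and on either side of 1 in gland 2 according to the scaling.

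The other genes of lipid metabolism were read from 7 lists with 97 genes, 96 of which passed the filter. In primary untreated tumors against glands, edgeR's quasi-likelihood test with Benjamini-Hochberg adjustment called 22 of the 96 lower and 1 higher, where 1.83% of all 17135 genes were called lower and 0.28% higher. Acetyl-CoA, citrate and NADPH supply had 3 of 9 lower, among them the citrate carrier Slc25a1 (log2 fold change -3.33, SE 0.56, adjusted p = 0.0350). Elongation and desaturation had 3 of 14 lower, the 3 fatty acid desaturases Fads1, Fads2 and Fads3, of which Fads1 had 158 and 2362 CPM in the glands and 32.2, 13.2 and 9.28 CPM in the tumors. Glycerolipid assembly had 5 of 14 lower, with Dgat2, which adds the last acyl chain of triglyceride, at 137 and 95.5 CPM in the glands and 20.9, 8.05 and 7.92 CPM in the tumors. Uptake and activation had 4 of 14 lower, and its fatty acid binding protein Fabp3 had 119 and 4660 CPM in the glands and 4.22, 2.55 and 2.21 CPM in the tumors. Milk fat globule secretion had 3 of 10 lower (Muc1, Muc15 and Cidea) and 1 higher, the lipid droplet coat protein Plin3, with 192, 189 and 200 CPM in the tumors and 96.8 and 72.5 CPM in the glands. Regulators of lipogenesis had 3 of 21 lower (Acacb, Mlxipl and Insig1) and fatty acid oxidation 1 of 14 (Cpt2).

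These calls sat close to the threshold and rested on few libraries. The number of list genes called lower was 5 without gland 2 (1.42% of all genes), 45 without gland 1 (9.06%), and 2, 0 and 0 without primary untreated replicate 1, 2 and 3 (0.146%, 0% and 0%). It was 2 on library totals alone (0.111% of all genes), 47 by DESeq2 (9.75%) and 0 with the replicate number as a block (0.0233%), so the share of all genes called lower moved with it. By levels alone, all 3 primary untreated tumors were below both glands for 46 of the 96 genes and above both for 10, against 20.4% and 18.8% of all genes tested. The share below both glands ran from 33.3% of the regulators to 71.4% (10 of 14) of the genes of fatty acid oxidation, so that genes that burn fatty acids were in that order as well as genes that make them. The sums of several marker lists moved with this contrast. Beside the adipocyte and milk protein sums, the 8 basal and myoepithelial markers summed to 336 and 973 CPM in the glands and 27.1 to 66.9 CPM in the primary untreated tumors. The 8 leukocyte markers summed to 456 and 118 CPM in the glands and 86.2 to 97.9 CPM in these tumors. The part of these tissues and cells in the contrast was not tested.

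**Figure D3:**
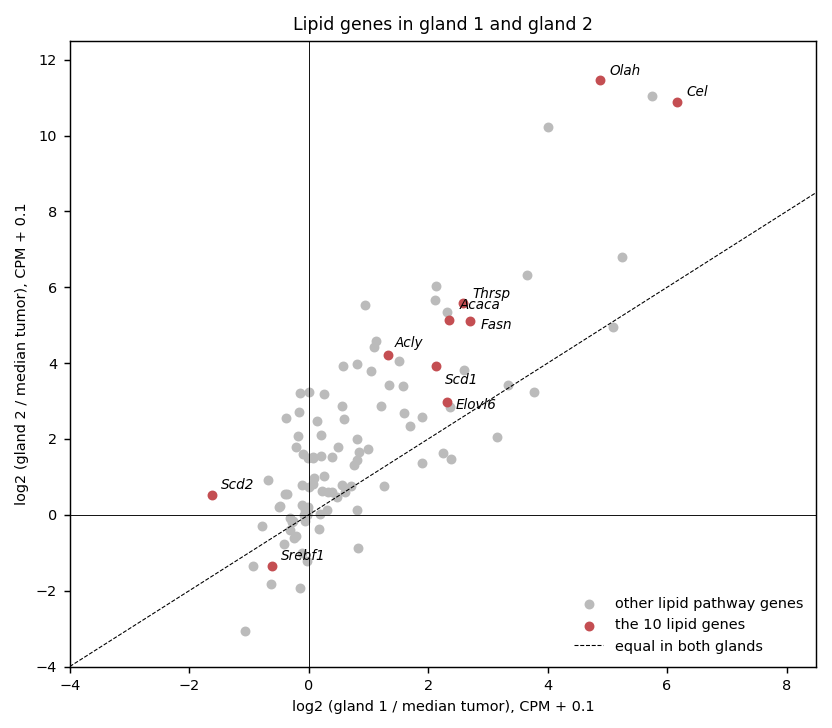
Log2 ratio of gland 1 (horizontal) and gland 2 (vertical) to the median tumor, each with 0.1 CPM added, for the 10 genes (red) and the other lipid pathway genes (grey); the dashed line marks equal levels in both glands. Most genes lie above the line, Olah and Cel at the far upper right, and Srebf1 lies below 0 on both axes.

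Between the tumor groups, no member was called by edgeR in any of 6 contrasts, and 0% of the 16870 genes tested were called in each of them. At an unadjusted p under 0.05 edgeR had 634 to 2296 genes per contrast. The limma voom fit called 0 genes as well, and DESeq2 called 17 to 410. Contrasts that use the primary untreated tumors share these 3 libraries. Primary STV against primary untreated tumors asked whether stavudine in the water went with a change in primary tumors. The log2 fold changes of the 10 members ran from -0.74 (Cel) to 0.66 (Olah) with a median of 0.09, against -0.03 over all genes, none had an unadjusted p under 0.05, and 0 members had groups free of overlap, where 10.8% of all genes did. The median rose to 0.37 without primary untreated replicate 1, the tumor with the most Fasn and Thrsp of that group, and was -0.089 without replicate 3.

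Recurrent DMAG against primary untreated tumors asked how tumors that regrew under continued 17-DMAG differ from those never treated. Here log2 fold changes ran from -0.55 (Srebf1) to 2.89 (Olah) around a median of -0.01, against -0.01 over all genes, and no member had an unadjusted p under 0.05. The Olah value had an SE of 1.48 and came from 1 tumor, since recurrent DMAG 2 had less Olah than each primary untreated tumor. With TMM factors Srebf1 alone had groups free of overlap, as did 15.1% of all genes, but its groups overlapped on library totals. The median was 0.29 without primary untreated replicate 1 and -0.24 without replicate 3.

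Recurrent DMAG+STV against primary STV tumors is the same question under stavudine, whose start may differ between these groups. The median log2 fold change of the members was 0.25, against 0.01 over all genes. Thrsp had a log2 fold change of 2.38 (SE 0.74, edgeR adjusted p = 0.376) and Cel one of 2.01 (SE 0.61, edgeR adjusted p = 0.359), with 2 of 2 tumors above all 3 primary STV tumors. Neither passed the adjustment. DESeq2 called Thrsp (log2 fold change 2.37, adjusted p = 0.0445) among 2.1% of the genes it tested, and not Cel (adjusted p = 0.0646), and limma voom called neither. Thrsp, Cel and, in the lower direction, Scd1 (log2 fold change -0.44) had groups free of overlap, 3 of 10 members where 35.3% of all genes did. Without recurrent DMAG+STV 2 the Thrsp value was 1.00 and without recurrent DMAG+STV 1 it was 3.05, whereas Cel stayed between 1.75 and 2.59 whichever tumor was left out. Recurrent DMAG+STV 2 had the highest adipocyte sum (117 CPM) and skeletal muscle sum (1561 CPM) of the 11 tumors, against 24.5 and 14.6 CPM in recurrent DMAG+STV 1. It also had the highest basal and myoepithelial sum (272 CPM, against 65.7 in recurrent DMAG+STV 1) and the lowest luminal epithelium sum (1524 CPM, against 2523). The basal markers did not move together. Trp63, a basal transcription factor, was at 86.4 CPM in it and at 2.20 to 23.4 CPM in the other tumors. Acta2 was at 148 CPM in it and at 7.85 to 90.8 CPM in the others. Krt5, Krt14, Krt17, Myh11, Cnn1 and Oxtr were each lower in it than in recurrent DMAG 1. The part of these tissues and cells in the Thrsp level of recurrent DMAG+STV 2 was not tested.

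Recurrent DMAG+STV against recurrent DMAG tumors asked about stavudine among regrown tumors, and it shares the 2 recurrent DMAG+STV tumors with the contrast before. The median of the members was 0.34, against -0.0047 over all genes. Of the 10, Thrsp had the largest log2 fold change, 2.59 (SE 0.74, edgeR adjusted p = 0.403), and it was 1.21 without recurrent DMAG+STV 2 and 3.26 without recurrent DMAG+STV 1. DESeq2 called it (adjusted p = 0.0222) among 1.76% of the genes it tested. Cel had a log2 fold change of 1.15 (SE 0.60) and Olah one of -1.39 (SE 1.61). Thrsp and Cel had groups free of overlap, 2 of 10 members where 21.5% of all genes did. Mid1ip1, a paralog of Thrsp that also acts on acetyl-CoA carboxylase, was the regulator with the smallest p in this contrast and in the one before. It had 11.2 and 28.2 CPM in recurrent DMAG+STV tumors, 6.14, 7.91 and 8.14 CPM in recurrent DMAG tumors and 7.92, 8.05 and 7.13 CPM in primary STV tumors, and it was not called (edgeR adjusted p = 0.269 and 0.313).

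Averaged over both water arms, recurrent against primary tumors gave Thrsp a log2 fold change of 1.27 (SE 0.49, edgeR adjusted p = 0.335) and Cel one of 1.06 (SE 0.41, edgeR adjusted p = 0.334). No member had the 5 recurrent tumors free of overlap with the 6 primary tumors, where 1.34% of all genes did. Thrsp was at 0.59 without recurrent DMAG+STV 2, and Cel at 0.70 without recurrent DMAG 1. The interaction, which tests whether the recurrence difference itself differs with stavudine, was 2.23 for Thrsp (SE 0.99, edgeR adjusted p = 0.635) and 1.89 for Cel (SE 0.82, edgeR adjusted p = 0.625). For Thrsp it was 0.84 without recurrent DMAG+STV 2 and 1.24 without primary untreated replicate 1. The other 8 members had interactions from -2.05 (Olah, SE 2.13) to 0.80 (Scd2, SE 0.38), none with an unadjusted p under 0.05. Of the 96 list genes none was called in any of the 6 contrasts.

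**Figure D4:**
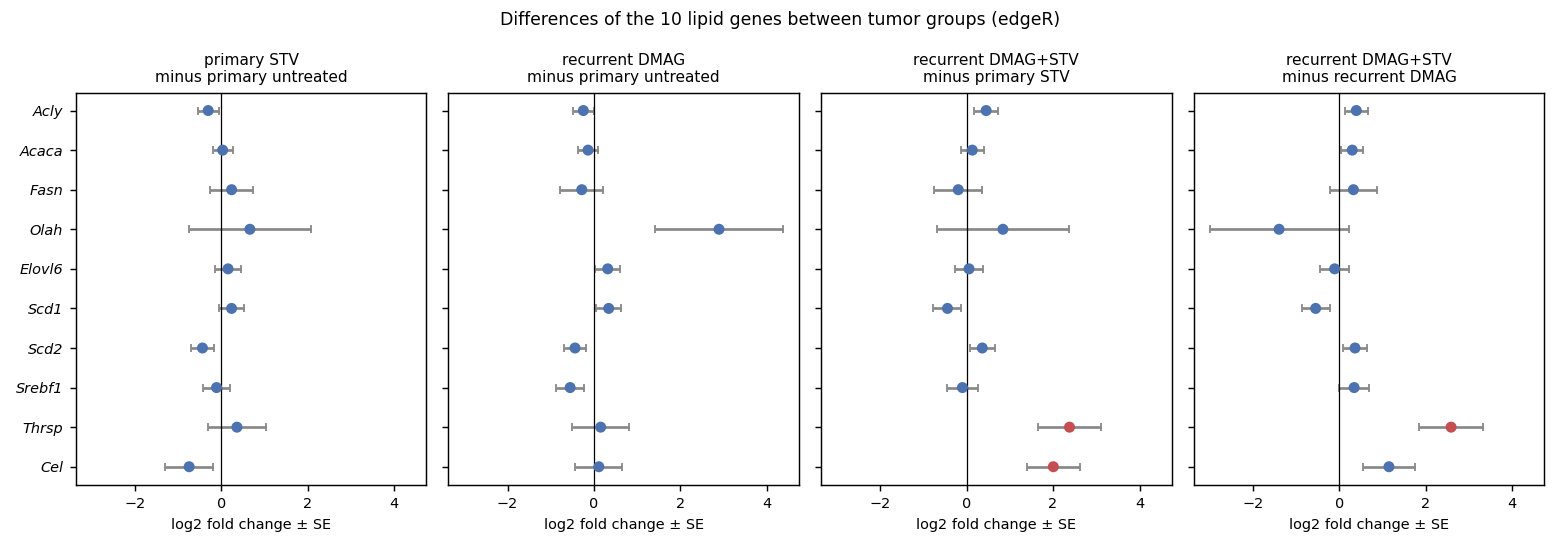
Log2 fold change and SE of the 10 genes in 4 contrasts between tumor groups (edgeR fit of the 11 tumors); red points have an unadjusted p under 0.05. Thrsp and Cel lie to the right where recurrent DMAG+STV tumors enter, Olah has the widest SE, and no point passed the adjustment over all genes.

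Over the 11 tumors the members were set against the milk protein score and the adipocyte score (mean log2 CPM of the 8 markers of each) and against Srebf1, 29 relations in all, with permutation tests of 100000 resamples, two-sided, and Benjamini-Hochberg adjustment over the 29. Acly rose with the milk protein score, with Pearson's r = 0.87 (permutation p = 0.0003, adjusted p = 0.00870) and Spearman's rho = 0.94 (permutation p = 0.00011, adjusted p = 0.00319). Its r was 0.81 without the 2 tumors farthest from the median score, recurrent DMAG 1 and recurrent DMAG+STV 1, and 0.89 for deviations from the group means. Olah had r = 0.85 (permutation p = 0.00144, adjusted p = 0.0209) and rho = 0.84 (permutation p = 0.00219, adjusted p = 0.0277) with the same score. Its r was 0.56 without these 2 tumors and 0.96 for deviations from the group means, so a good part of the relation rests on them. Cel, the other milk gene, had r = 0.58 (permutation p = 0.0622, adjusted p = 0.258) and 0.11 without these 2 tumors.

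Acaca followed the adipocyte score in rank (rho = 0.83, permutation p = 0.00286, adjusted p = 0.0277), while its r of 0.68 did not pass (permutation p = 0.0186, adjusted p = 0.180). Without primary STV 3 and recurrent DMAG+STV 2, the tumors with the least and the most adipocyte signal, its r was 0.83. Thrsp had r = 0.61 and rho = 0.65 with this score (permutation p = 0.0532 and 0.0330, adjusted p = 0.258 and 0.192), and Fasn r = 0.53 and rho = 0.66 (permutation p = 0.0937 and 0.0310, adjusted p = 0.319 and 0.192). Srebf1 had no relation past the threshold with any of the other 9 members. Its r ran from -0.64 with Olah to 0.52 with Fasn, and these became 0.37 and 0.08 without primary STV 2 and recurrent DMAG 1.

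**Figure D5:**
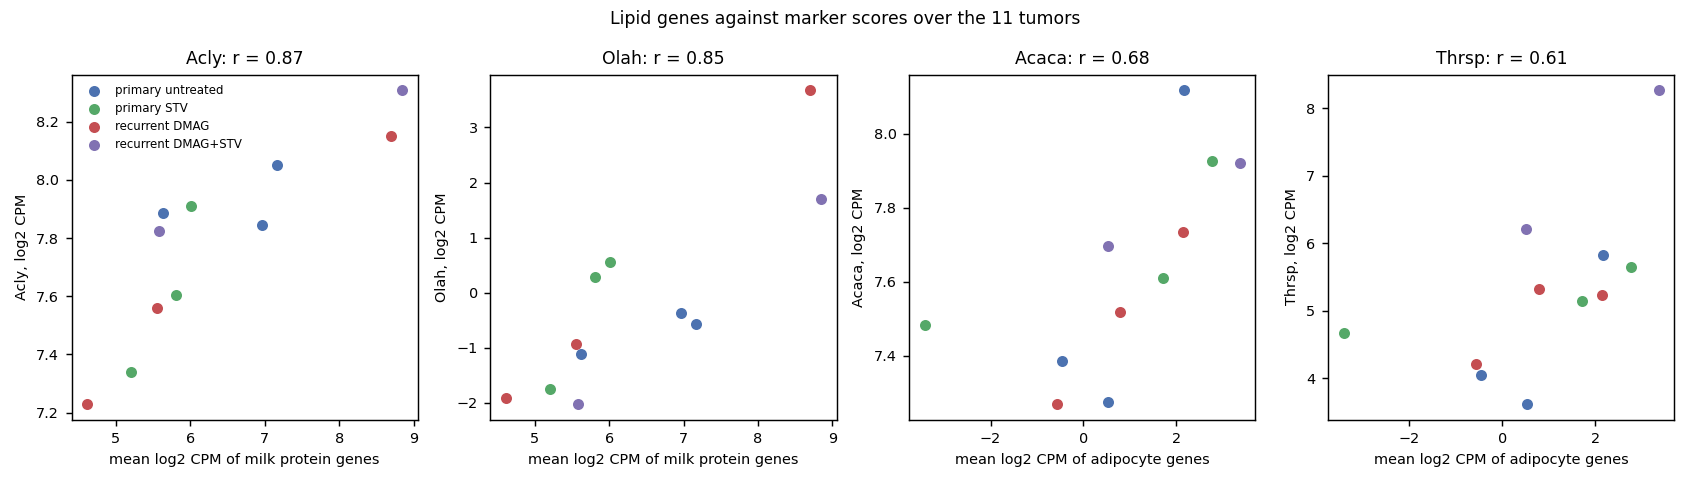
Log2 CPM of Acly and Olah against the milk protein score and of Acaca and Thrsp against the adipocyte score, 1 point per tumor, coloured by group, with Pearson's r over the 11 tumors (0.87, 0.85, 0.68 and 0.61). Acly climbs along the whole range of the score, and the 2 tumors with the most Olah, recurrent DMAG 1 and recurrent DMAG+STV 1, are also those with the highest milk protein scores.

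Among 12691 other genes that averaged at least 1 on the log2 CPM scale over the tumors, those whose levels were most like Fasn were Mlxipl, which encodes the carbohydrate-responsive regulator ChREBP (r = 0.90), Pigq (0.89), Mettl7a1 (0.89), Ap1m1 (0.89) and Mknk2 (0.87). Mlxipl ran from 3.15 to 11.8 CPM over the tumors. For Olah the nearest were Fbxo28 (0.94), Tcf20 (0.90), Zfp944 (0.90), Aif1 (0.89) and Rabggtb (0.88). These r values describe 11 tumors, in which recurrent DMAG 1 has a large weight for both Fasn and Olah. The genes were picked as the highest r of all genes compared. High values also arise by chance in a search of this size, so they test no link.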

How the data were processed

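RNA-seq of 13 libraries (11 tumors, 2 glands) was analysed. The authors deposited raw, unscaled counts of reads for each gene. According to the labels and the methods of the study, the authors prepared rRNA-depleted total RNA, demultiplexed with bcl2fastq 2.20, aligned with STAR to GRCm38 and made the counts with featureCounts (Subread 1.6.2); the handling of multiply mapped reads is not given in the sources used here. Groups came from the labels, which do not say whether each tumor came from its own mouse, so p-values measure the spread between these libraries.

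From the counts, edgeR 4.0.16 (R 4.3.3) fitted quasi-likelihood models after filterByExpr and TMM scaling: 11 tumors with 16870 genes for 6 contrasts, and 13 libraries with 17135 genes for glands. The tumor groups share 1 estimate of the spread. Genes were called at an adjusted p under 0.05 (Benjamini-Hochberg over all genes, two-sided), and SE is the log2 fold change divided by the square root of F. Log2 CPM used a prior count of 2. DESeq2 1.42.0, limma 3.58.1 voom, RLE factors, no filter, other scalings, a replicate block and leaving out each library were alternatives. Scripts were tested on simulated data. The floor of 3 counts covers counting error only, whereas SE and SD include the spread between libraries.

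Members and lists were chosen with earlier results of these data known. Named genes were the members, with statistics where the unadjusted p was under 0.05, and per list the called genes, at most 3 in each direction, or otherwise those with the 2 smallest p; Olah, Cel and Scd1 values beyond this were given after their values were seen. Positions came from GENCODE M21 and promoters from RefSeq (GRCm38.p6).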

Additional observations from a re-analysis of the deposited data

How the results depend on the processing

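The count of members called between tumor groups was 0 by edgeR in all 6 contrasts and stayed 0 under every alternative run except DESeq2, which called 1 member (Thrsp) in recurrent DMAG+STV against primary STV tumors and 1 (Thrsp) in recurrent DMAG+STV against recurrent DMAG tumors. Leaving out each library in turn, the median log2 fold change of the members ran from -0.089 to 0.37 for stavudine in primary tumors, from -0.24 to 0.29 for recurrent DMAG against primary untreated tumors, and from 0.17 to 0.60 for the interaction. The median difference from the glands ran from -4.51 to -2.33. The list genes called lower in tumors than in glands, whose alternatives were chosen after seeing the data, were 22 (1.83% of all genes were), but 2 on library totals alone (0.111%), 47 by DESeq2 (9.75%) and 0 to 45 on leaving out a library (0% to 9.06%). No result changed direction past a threshold, and causes of these changes were not tested. Where 1 library was left of recurrent DMAG+STV tumors or glands, it was assumed to vary like the other groups.

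The replicate numbers name libraries and no label ties them to an animal or day. Same-numbered libraries deviated from their group means with correlations of -0.26 to 0.19, not all above 0.1, so the numbers were not taken as pairs. With the replicate block no member was called in any tumor contrast (0), Thrsp had adjusted p = 0.697 against primary STV and 0.664 against recurrent DMAG tumors (edgeR), the median difference of the members from the glands was -3.67, and 0 list genes were called lower. Olah had as few as 10 counts and Cel as few as 34 in a tumor, the other members at least 610, so differences among the tumors with the least Olah were not detectable at this depth.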
